A study of Mus musculus with 58 samples.

Results

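Promoters that carried neither H3K4me3 nor H3K27me3 were collected in hematopoietic stem cells (HSCs) of old male C57BL/6 mice under lifelong caloric restriction (CR). The members were chosen by their histone signals, as the tabled promoters with an H3K4me3 signal under 1 and an H3K27me3 signal under 0.5 in each of the 2 ChIP-seq libraries of either mark, where the signal is the authors' scaled coverage per base. By this rule 4183 of the 31552 tabled promoters (13.3%) were members, with 3915 gene symbols and 4083 distinct start sites. For 3317 genes every tabled promoter was a member (called mark-free genes below), and for a further 598 genes at least 1 other promoter was not.

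All mice were wild type, and the HSCs were sorted from bone marrow as Lin- Sca-1+ c-Kit+ CD34- Flk2- CD150+ cells. OAL mice (old, ad libitum) were 24 to 26 months old and always ate freely. OCR mice (old, caloric restricted) were of the same age and had received 40% less food since the age of 3 to 4 months. OCRRF mice (re-fed) were OCR mice given free access to food for the last 4 weeks. YAL, YCR and YCRRF mice were the young counterparts, 3 to 4 months of age. Their CR lasted 4 weeks, at a milder level in the first week and at 40% less food after it. RNA-seq libraries numbered 4 a group, except OCRRF with 2, ATAC-seq libraries 4 for OCR and 2 for OCRRF, and PU.1 ChIP-seq libraries 2 for each old group. The histone marks were analysed in OCR alone, so how these promoters are marked in the other groups was not analysed here.

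H3K4me3 sits at the start of most transcribed genes and at CpG islands, and H3K27me3 is laid down by Polycomb at many silent developmental genes. Promoters that carry neither are typically poor in CpG and belong to genes that work in other tissues, and many of these are kept silent by DNA methylation instead. A start site in an annotation can also lack both marks because transcription of the gene begins elsewhere, as it does for a microRNA that is cut from the transcript of a longer host gene.

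The base composition of the members is easiest to see in the DNA itself. The 250 bases before the start are shown, read along the gene's strand, for Gata1, the erythroid and megakaryocytic transcription factor whose RNA was higher under CR, and for Psmc1, a proteasome ATPase and the mark-free gene with the highest RNA level per kb, at its tabled start and at a second annotated start that lay in open chromatin. Capitals mark the CG dinucleotides. The sequences are RefSeq GRCm38.p6 (mm10) and lie at chrX:7967911-7968160 (minus strand), chr12:100112081-100112330 (plus strand) and chr12:100109904-100110153 (plus strand).
Gata1, tabled start: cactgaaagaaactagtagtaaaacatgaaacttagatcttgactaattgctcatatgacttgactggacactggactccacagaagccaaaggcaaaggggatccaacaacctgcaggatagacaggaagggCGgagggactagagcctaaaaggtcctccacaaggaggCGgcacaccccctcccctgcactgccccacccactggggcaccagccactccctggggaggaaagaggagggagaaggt
Psmc1, tabled start: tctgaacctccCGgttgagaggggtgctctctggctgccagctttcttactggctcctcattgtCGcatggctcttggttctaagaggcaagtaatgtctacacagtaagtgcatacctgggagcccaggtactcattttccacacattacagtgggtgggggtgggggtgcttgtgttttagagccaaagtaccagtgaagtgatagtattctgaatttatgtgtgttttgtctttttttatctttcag
Psmc1, other annotated start: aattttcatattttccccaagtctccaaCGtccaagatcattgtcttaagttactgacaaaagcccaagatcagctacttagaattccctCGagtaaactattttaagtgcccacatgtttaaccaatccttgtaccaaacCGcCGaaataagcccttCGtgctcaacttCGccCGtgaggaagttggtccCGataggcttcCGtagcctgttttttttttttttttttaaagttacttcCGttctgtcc
The tabled starts of Gata1 and Psmc1 each held 2 CG dinucleotides in this window, and the other start of Psmc1 held 10. The observed over expected CpG ratio was 0.11 at Gata1, 0.149 at the tabled start of Psmc1 and 1.01 at its other start. The window of the tabled Psmc1 start ends in a run of pyrimidines followed by AG, the letters found before an exon at a splice site. This start coincides with the start of an internal exon in another transcript of the gene.

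The members were alike in base composition and differed little in it from promoters that carried H3K27me3. The median CpG ratio over 300 bases (250 before to 50 after the start) was 0.189 at the 4145 members for which this window was read. It was 0.193 at the 5468 promoters with low H3K4me3 and H3K27me3 at or above the limit in both libraries, and 0.75 at the 19874 promoters with H3K4me3 at or above its limit. The median GC content was 46.3%, 48.3% and 61.3% in the same order. A TATAAA hexamer on the sense strand between 40 and 20 bases before the start was found in 2.9% of the members (120 promoters), against 5.38% of the promoters with H3K27me3 and 0.986% of those with H3K4me3. CpG content thus set the members apart from H3K4me3 promoters, and the TATA hexamer was more common in both CpG-poor kinds than in the CpG-rich one. Promoters are not replicates, so these shares are descriptions and were not tested.

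The signals that chose the members are given here only as a description. The median member signal was 0.266 and 0.274 in the H3K4me3 libraries and 0.26 and 0.257 in the H3K27me3 libraries, and 205 members were at 0 in all 4. H3K4me3 separated promoters well, with 1928 of all promoters at a mean between 0.5 and 1 and 952 between 1 and 2, whereas H3K27me3 did not. Among the 11146 promoters with low H3K4me3 in both libraries, 1314 had a mean H3K27me3 signal from 0.4 to 0.5 and 1203 from 0.5 to 0.6, so the limit of 0.5 ran through the dense part of one distribution. A further 1495 lay on different sides of this limit in the 2 libraries and were counted in neither class. Just inside the H3K4me3 limit lay Acsm1 and Zfp652 and just outside it Gm26504 and Muc5b, all at 1.00 to 2 decimals. Lrrc72 and Tifab lay just inside the H3K27me3 limit and Vmn2r83 and Olfr1346 just outside it, all at 0.50. Over all promoters the replicate libraries ranked signals alike for H3K4me3 (Spearman rho 0.971 across promoters) and somewhat less so for H3K27me3 (0.904).

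**Figure D1:**
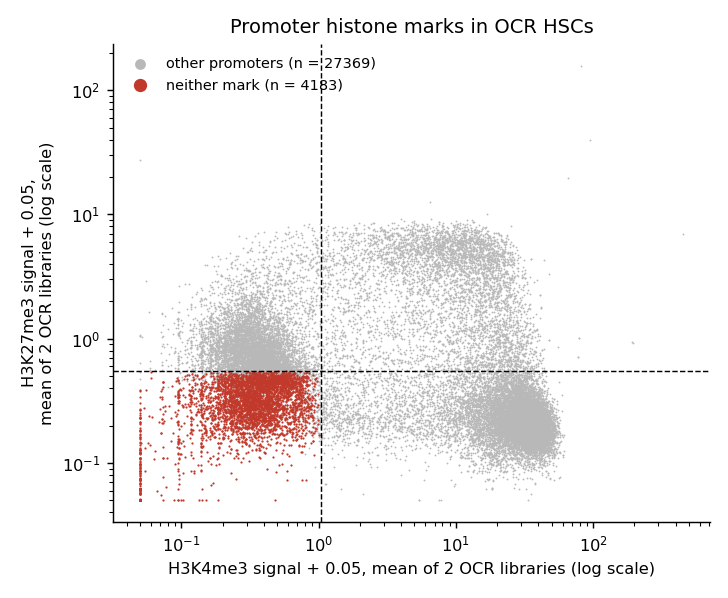
Mean H3K4me3 signal (x axis) against mean H3K27me3 signal (y axis) over the 2 OCR libraries of each mark, in scaled coverage per base plus 0.05 on log axes, with 1 point a promoter. The 4183 members (red) fill the corner below both limits (dashed), and the cloud of promoters with low H3K4me3 runs across the H3K27me3 limit with no gap.

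The read length also set a limit on which promoters could show a mark. Among the members 684 (16.5%) lay in windows of which less than 50% could be reached by uniquely aligned single 75-base reads. Of these, 350 had no uniquely aligned tile at all. Such windows made up 2.29% of the promoters with H3K27me3 and 0.72% of those with H3K4me3. The paper gives the histone libraries as paired-end, and mates were not considered here, so these shares may be too high. Because the authors kept uniquely aligned reads only, a low signal there does not show that a mark was missing.

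MicroRNA genes were the most numerous class among the members. Of 1207 tabled microRNA promoters 636 (52.7%) were members, and they made up 15.2% of all members, whereas 242 had low H3K4me3 with H3K27me3 and 212 had H3K4me3. Poorly mappable windows made up 4.09% of the microRNA members. Non-coding transcripts of any kind accounted for 33.0% of the members, against 23.8% of the promoters with H3K27me3 and 11.2% of those with H3K4me3. Small nucleolar RNA genes, which guide the modification of other RNAs and commonly lie in introns, contributed 39 of 111. Predicted genes named Gm held 487 members of 1550 promoters, 44.6% of them in poorly mappable windows, and Rik clones 372 of 2057, with 9.41% in such windows.

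Chemosensory receptors were a further large group. Vomeronasal receptors, which detect pheromones, were members at 193 of 345 promoters, and 45.6% of these lay in windows with under 50% unique sequence, which left 105 when only well mappable windows were kept. Olfactory receptors were members at 283 of 1135 promoters, with 3.89% in poorly mappable windows, but more of them (537) had H3K27me3 at or above the limit. The taste and trace amine receptors were rarely members (5 of 53, with 34 having H3K27me3).

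Families that lie in tandem arrays and act in secretion, defence or reproduction showed 2 patterns. Major urinary proteins (21 of 25), defensins (37 of 77), the prolactin family (12 of 29) and the C-type lectins (16 of 38) were often members. Of these, 95.2% of the major urinary protein members and 59.5% of the defensin members had poorly mappable windows, against 8.33% for the prolactin family and none for the C-type lectins. Keratins and their associated proteins, kallikreins and type I interferons were instead mostly in the class with H3K27me3. For keratins 6 of 116 promoters were members and 94 had H3K27me3, for kallikreins 0 of 30 and 26, and for interferons 2 of 20 and 12. Zinc finger genes named Zfp were mostly marked by H3K4me3, at 470 of 527 promoters, with 34 members, of which 35.3% had poorly mappable windows.

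**Figure D2:**
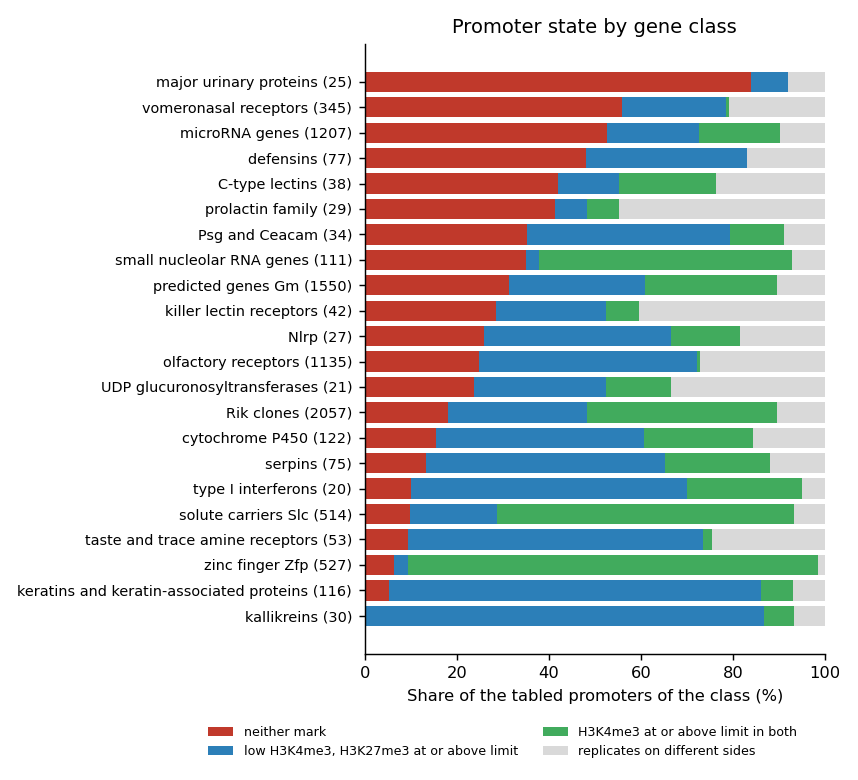
Share of the tabled promoters of each gene class (x axis, %) that carried neither mark (red), low H3K4me3 with H3K27me3 at or above the limit (blue) or H3K4me3 at or above the limit in both libraries (green), with promoters whose replicates lay on different sides in grey and the number of tabled promoters in brackets. The red share runs from 84% for major urinary proteins to 0% for kallikreins, and keratins and kallikreins are mostly blue.

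Most microRNA members lay inside an active gene whose own promoter was marked. A protein-coding host on the same strand contained 437 of the 636 (68.7%), against 80 of the 242 microRNA promoters with H3K27me3. Host RNA reached a mean of at least 1 CPM (counts per 1 M counts of the library) in the OCR libraries for 417 of the 434 microRNAs with a host that could be matched to a count, with a median of 41.5 CPM, whereas the median for hosts of microRNAs with H3K27me3 was 2.05 CPM. The host had a tabled promoter in 432 cases, and in 415 of these its mean H3K4me3 signal was at least 1, with a median of 29.7. The hairpin itself was in open chromatin, with an ATAC-seq peak within 1 kb, in 75 of the 636. The tabled start of a microRNA is the 5′ end of its hairpin and not the start of the host transcript.

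The mature sequences show which families these members encode. Seeds (bases 2 to 8, which pair with targets) are in capitals, and the sequences are those of RefSeq GRCm38.p6, read 5′ to 3′. The first 3 come from a cluster within Mcm7, a subunit of the replicative helicase, at chr5:138165332-138165353, chr5:138165574-138165596 and chr5:138165787-138165807 (minus strand). The next 2 come from within Huwe1, a ubiquitin ligase, at chrX:151912353-151912374 and chrX:151913229-151913250 (plus strand), and the last from within Hnrnpk, an RNA-binding protein, at chr13:58392841-58392863 (minus strand).
miR-25-3p: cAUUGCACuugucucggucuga
miR-93-5p: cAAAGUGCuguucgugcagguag
miR-106b-5p: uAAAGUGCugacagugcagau
let-7f-5p: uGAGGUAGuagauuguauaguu
miR-98-5p: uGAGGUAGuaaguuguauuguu
miR-7a-5p: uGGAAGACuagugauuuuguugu
miR-93-5p and miR-106b-5p share the seed AAAGUGC, and let-7f-5p and miR-98-5p share GAGGUAG. This let-7 seed was found in the most members, in 10 microRNA genes. Next came AGCAGCA (7 genes, among them Mir15a, Mir16-1, Mir195a and Mir497), then ACAUUCA (6 genes, Mir181a-1 to Mir181d) and AUUGCAC (6 genes, among them Mir25, Mir32 and Mir92-1). A mature sequence was found for 525 of the 636 members.

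At these loci the low hairpin signal follows from the rule, and it is given beside the signal of the host promoter, which the rule did not limit. At Mir25 the H3K4me3 signal was 0.229 and 0.349, at Mir98 it was 0 in both libraries, and at Mir7-1 it was 0.321 and 0.237. At the host promoters it was 40.3 and 38.1 for Mcm7, 22.6 and 23.1 for Huwe1 and 54.1 and 51.6 for Hnrnpk. Host RNA averaged 206 CPM for Mcm7, 223 CPM for Huwe1 and 1115 CPM for Hnrnpk over the OCR libraries. Of the 621 microRNA genes matched to a count, 5 reached 1 CPM themselves.

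RNA of the Mcm7 host differed with diet in old mice. Mcm7 stood at 151, 140, 126 and 141 CPM in the OAL libraries, at 221, 239, 195 and 170 CPM in OCR and at 116 and 109 CPM in OCRRF, so OCR lay above both other old groups with no overlap. The log2 fold change was 0.58 ± 0.09 (SE) for OCR against OAL (edgeR's quasi-likelihood test, Benjamini-Hochberg adjusted p = 0.000112) and -0.93 ± 0.13 for OCRRF against OCR (adjusted p = 9e-06). In young mice Mcm7 was at 188.6 to 264.6 CPM in YAL and 243 to 256 CPM in YCR, and the groups overlapped (0.12 ± 0.10, edgeR adjusted p = 0.816). Huwe1 and Hnrnpk were not called in either comparison of old groups. Their log2 fold changes were 0.06 and 0.02 for OCR against OAL (edgeR adjusted p = 0.828 and 0.94). Among the 361 distinct hosts of microRNA members, 38 of the 355 tested differed between OCR and OAL at an adjusted p under 0.05 and a fold change over 1.2 (22 higher and 16 lower in OCR), where 5.57% of all 27150 genes tested were called. Between OCRRF and OCR 36 of 357 hosts were called, 32 of them lower after refeeding. The share over all 32577 genes tested was 3.41%, with 2.71% lower and 0.694% higher. Over all genes at a mean level of 1 CPM or more the shares were 8.43% and 5.83%. Both comparisons share the OCR libraries. Between YCR and YAL 1 of 346 hosts was called, where 0.257% of all genes tested were.

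Chromosome X was full of members. Of its 1340 tabled promoters 555 (41.4%) were members, against 3520 of 30094 (11.7%) on the autosomes, and on chromosome Y 70 of 74 were. Among X promoters with low H3K4me3, 86.0% (555 of 645) were members, against 33.9% on the autosomes. The median H3K27me3 signal at promoters with low H3K4me3 was 0.223 on X and 0.581 on the autosomes, and at promoters above the H3K4me3 limit the median H3K4me3 signal was 14.2 on X and 25.3 on the autosomes. Males carry a single X, and the deposited signal was not scaled for copy number. Poorly mappable windows made up 23.7% of the X promoters with low H3K4me3 and 6.18% of the autosomal ones. With the X and Y signals doubled, a setting chosen after seeing the data, the set held 3903 promoters in place of 4183.

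**Figure D3:**
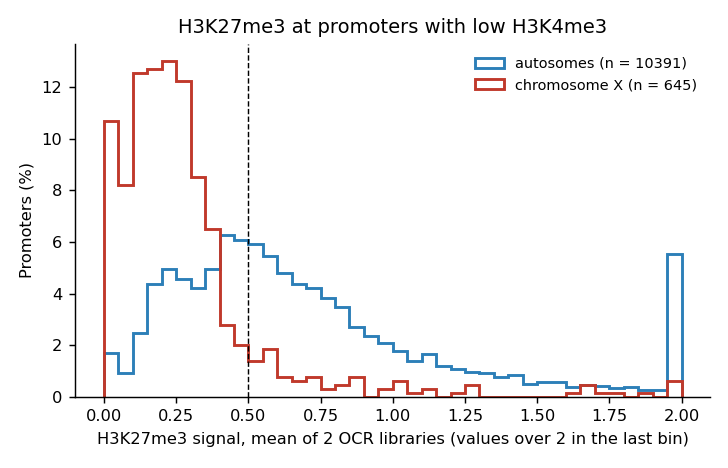
Distribution of the mean H3K27me3 signal over the 2 OCR libraries (x axis, scaled coverage per base) at promoters with low H3K4me3, as a share of such promoters (y axis, %), for chromosome X (red, n = 645) and the autosomes (blue, n = 10391). Most of the X distribution lies below the limit of 0.5 (dashed), and its median is 0.223 against 0.581 for the autosomes.

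Position within other genes was a feature of the members that the rule did not use. A start inside another protein-coding gene was found for 28.1% of the members, and for 19.3% on the same strand, against 10.8% and 4.86% of the promoters with H3K27me3. In addition 365 of 3966 members (9.2%) lay over 1 kb from any start that GENCODE gives the gene, against 2.66% and 0.831% for promoters with H3K27me3 and with H3K4me3. A tabled start at the start of an internal exon of another transcript was found for 143 members (3.42%), for 2.21% of the promoters with H3K27me3 and for 0.679% of the H3K4me3 promoters.

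Open chromatin was rare at the members, as it was at promoters with H3K27me3. An ATAC-seq consensus peak lay within 1 kb of the start of 723 of the 4183 members (17.3%). The share was 14.4% (789 promoters) with H3K27me3 and 97.4% (19358 promoters) with H3K4me3. At members in well mappable windows it was 20.1%, and it fell to 11.2% within 500 bases.

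PU.1, the transcription factor encoded by Spi1 that drives myeloid and lymphoid fates, was found at few members. Peaks lay within 1 kb of 22 and 26 members in the OAL libraries, 39 and 35 in OCR and 24 and 22 in OCRRF, which is 0.526 to 0.932% of the members. The shares were 0.0549 to 0.256% at promoters with H3K27me3 and 2.87 to 7.6% at those with H3K4me3. The OCR libraries also had the most peaks at all tabled promoters (1585 and 1095, against 882 and 801 in OAL and 740 and 601 in OCRRF), and 2 libraries against 2 cannot reach an exact permutation p under 0.05. The first and the second library of each group used different antibodies.

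A total of 46 members (42 genes) had a PU.1 peak in at least 1 library, 41 of them with an ATAC-seq peak as well, and 17 had one in all 6. The 17 stood at 15 start sites of 14 genes. They were Pirb, the inhibitory paired immunoglobulin-like receptor, its activating relatives Pira4, Pira6, Pira7 and Pira11, Scimp, an adaptor of antigen-presenting cells, Fbp2, the muscle fructose bisphosphatase, Tnni2, fast skeletal troponin I, and Cdkl4, Mir7647, Gm14548, Gm2848, 4930425K10Rik and A730082K24Rik. Ncf1, a subunit of the phagocyte NADPH oxidase, and Clec10a, a macrophage lectin, had a peak in 4 libraries, as did Dlg1, and Cfp, the complement factor properdin, had one in 3, as did Sqor and Tex14. The starts of Pira4, Pira7, Pira11, Gm14548 and a Pira6 transcript lie side by side at a single locus, and the other Pira6 starts lie side by side at another. The windows were 57.1 to 64.3% uniquely mappable, so these are not separate observations. RNA of these genes in OCR HSCs spanned a wide range. Mean levels were 2.32 CPM for Pirb, 4.66 CPM for Ncf1, 5.3 CPM for Cfp and 0.386 CPM for Scimp. They were 36.2 CPM for Sqor and 89.8 CPM for Dlg1, and 138 CPM for H2-DMa, which had a peak in 1 library.

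The Pirb promoter is shown because its peak was found in every library, with the hexamer GAGGAA, the core of PU.1 sites, or its complement TTCCTC in capitals. The 250 bases lie at chr7:3720383-3720632 (minus strand, RefSeq GRCm38.p6).
Pirb, tabled start: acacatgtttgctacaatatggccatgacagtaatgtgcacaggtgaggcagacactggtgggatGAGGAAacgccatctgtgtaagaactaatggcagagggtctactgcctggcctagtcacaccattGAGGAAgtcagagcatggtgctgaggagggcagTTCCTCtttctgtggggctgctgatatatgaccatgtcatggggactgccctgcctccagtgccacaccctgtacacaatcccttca
It held 3 matches. Within the 250 bases before the start (both strands) the hexamer was found at 23 of the 46 members with a PU.1 peak. The share was 22.2% over all members and 22.8% over all tabled promoters. The 46 are not separate sequences, since transcripts of Pirb share a start, as do those of Ncf1, and windows at the Pira starts overlap. A match in these letters is a description and not a binding site. Pirb was also in open chromatin, with ATAC-seq levels of 12.3, 14.2, 10.4 and 11.0 CPM in the OCR libraries and 10.1 and 10.7 CPM in OCRRF, although only 32.1% of its window was uniquely mappable.

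RNA of mark-free genes was scarce. RNA counts could be matched to 3166 of the 3317 mark-free genes, and their median level over the OCR libraries was 0.188 CPM, against 0.388 CPM for the 4348 genes with H3K27me3 at every promoter and 26.9 CPM for the 14393 genes with H3K4me3 at every promoter. In sorted bulk cells, a low level in every cell and a high level in a few cells cannot be told apart. At least 1 CPM was reached by 570 mark-free genes (18.0%), by 15.4% of the genes with H3K27me3 and by 85.8% of those with H3K4me3. Between the low classes this order turned with the library, from 15.2% against 9.8% in the second OCR library to 23.3% against 27.2% in the third, and in OCRRF it was 21.5% against 24.5% and 25.2% against 32.0%. At a mean of 10 CPM or more there were 115 mark-free genes (3.63%) against 29 (0.667%). At the other end, 459 mark-free genes (14.5%) were listed at 0 in all 4 OCR libraries, against 2.3% of the genes with H3K27me3.

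The share of silent genes depended on the libraries. Between 24.2 and 31.4% of the mark-free genes were listed at 0 in any old library and between 48.7 and 74.0% in any young one. The whole libraries moved in the same way, with 8730 to 13305 of all genes at 0 in the old and 21880 to 33167 in the young, at totals of 23.5 to 34.4 M and 11.1 to 36.6 M counts. The olfactory receptor genes, which HSCs are not known to use, summed to between 375 and 538 CPM in OAL. The OCR libraries spanned 401 to 885 CPM with the third OCR library highest, the OCRRF pair 829 to 1050 CPM, and young libraries 56.5 to 342 CPM. The summed RNA of the mark-free genes nonetheless stayed between 6159 and 6919 CPM in all 22 libraries. Old and young libraries were therefore not tested against each other, and where levels of both are printed below they are descriptions only. The part of this difference between libraries in the results was not tested.

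None of 12 HSC marker genes (Slamf1, Kit, Procr, Mecom, Hlf and others) was a member, and all 12 carried H3K4me3 and were expressed. No gene the study named in its RNA results and that was looked up, such as Kdr, Bmpr1a, Spi1 and Mki67, was a member. Markers of mature blood cells were members in part: 1 of 14 for platelets (Ppbp), 3 of 13 for neutrophils (Elane, Camp, Cxcr2), 2 of 11 for monocytes (Csf1r, Ccr2), 1 of 10 for eosinophils and mast cells (Prg3), 4 of 13 for B cells (Cd79a, Vpreb1, Blk, Mzb1) and 3 of the 11 tabled erythroid markers (among them Hbb-bs and Alas2). Among T and NK cell markers Prf1 was a member, and Lck had 1 of its 2 promoters in the set.

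Several of these marker genes had RNA although their tabled starts carried neither mark. Csf1r, the receptor for macrophage colony-stimulating factor, stood at 11.9, 14.2, 13.0 and 13.1 CPM in OCR and at 11.3, 13.3, 14.6 and 13.1 CPM in OAL. Vpreb1, part of the pre-B cell receptor, stood at 6.3, 3.19, 2.91 and 4.62 CPM in OCR. Csf1r varied little between these libraries, and Vpreb1 more. The gene body of Csf1r overlaps Hmgxb3, and another annotated Vpreb1 start 1588 bases upstream had an ATAC-seq peak of 38.7 CPM. Camp, a granule peptide of neutrophils, ranged from 0.661 to 6.84 CPM in OCR and from 27.9 to 153.9 CPM in YCRRF. Elane, neutrophil elastase, stood at 0.19, 0.144, 3.49 and 0.66 CPM in OCR and reached 52.3 CPM in a YAL library. The 13 neutrophil markers together spanned 220 to 333 CPM in OCR and 490 to 1897 CPM in YCRRF, and in OCR most of that sum was Prtn3, at 192 to 215 CPM. Camp and Elane did not vary together, since in the fourth YAL library Camp stood at 58.6 CPM and Elane at 0.112 CPM, and in the third at 10.2 and 52.3 CPM. The part of mature cells in these levels was not tested.

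The 570 expressed mark-free genes fell into 4 kinds by open chromatin. The tabled start had an ATAC-seq peak within 1 kb for 145 (25.4%, median 2.5 CPM). Another start that GENCODE gives the gene was open, and not the tabled one, for 123 (21.6%, median 8.53 CPM). No peak lay at any annotated start for 268 (47.0%, median 1.72 CPM), and for 34 (5.96%, median 5.26 CPM) the tabled window was poorly mappable. Among the 2596 mark-free genes under 1 CPM, another open start was found for 1.96%. Where another start was open, it lay upstream of the tabled start in 66 of 123 genes, at a median distance of 8229 bases, and in the 22 genes where it was itself within 1 kb of a tabled promoter, that promoter had a mean H3K4me3 signal of at least 1 in all 22. Of the 28 genes at 50 CPM or more 21 were of this kind. At 20 CPM or more 20 of the 73 tabled promoters (27.4%) coincided with the start of an internal exon, against 31 of 2713 (1.14%) in genes under 1 CPM.

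**Figure D4:**
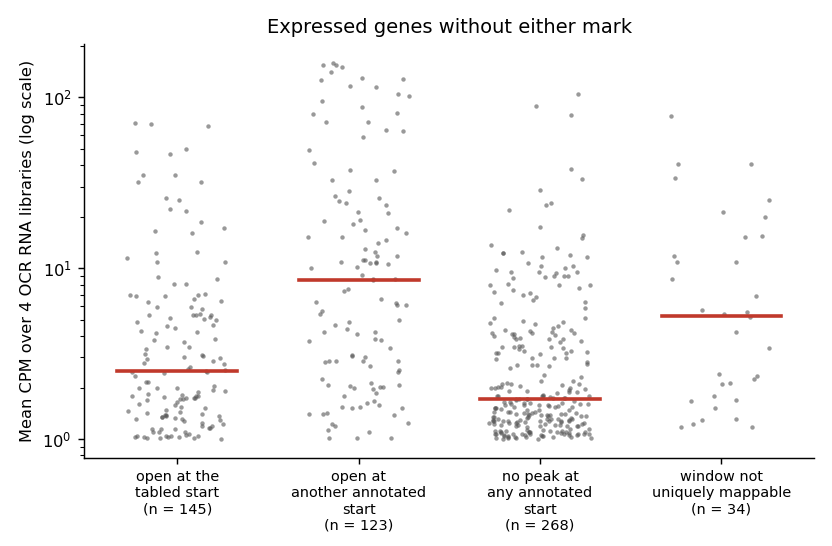
Mean RNA level over the 4 OCR libraries (y axis, CPM, log scale) of the 570 mark-free genes with at least 1 CPM, by where an ATAC-seq peak was found (x axis), with 1 point a gene and the median as a red line. Genes with another open start have the highest median (8.53 CPM) and genes with no peak the lowest (1.72 CPM).

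Several genes with another open start work in most cells. Psmc1 stood at 154, 149, 134 and 128 CPM in OCR and 150, 146, 145 and 146 CPM in OAL, with a peak of 14.6 CPM at the start 2177 bases upstream. Zmiz2, a transcriptional coactivator, stood at 119, 119, 107 and 118 CPM in OCR, with a peak of 45.5 CPM at a start 6051 bases upstream. Nlrc5, the activator of MHC class I genes, ranged from 121 to 136 CPM, with its open start 38407 bases upstream. The chromatin regulators Nsd2 and Ash1l averaged 154.2 and 153.8 CPM, and their open starts lay 22387 and 15190 bases upstream. Eif2ak1, the heme-regulated kinase, ranged from 90.1 to 113 CPM with an open start 54074 bases upstream. In all of these the tabled start was inside the gene, downstream of the open one. For Sdsl, a serine dehydratase-like enzyme at 91.1 to 112 CPM, and Pde6h, a phosphodiesterase subunit of cone cells at 143 to 177 CPM, the open start lay 5403 and 4738 bases downstream. The gene body of Pde6h overlaps Arhgdib, and whether the counting used strand is not given in the sources used here.

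Of the 145 genes with an open start of their own, Il21r had the highest RNA level. Il21r, the interleukin 21 receptor, ranged from 67.4 to 76.0 CPM in OCR, and its tabled start had H3K4me3 signals of 0.663 and 0.626, H3K27me3 signals of 0.375 and 0.322 and an ATAC-seq peak of 1.75 CPM. Rpl37rt, a retrotransposed copy of a ribosomal protein gene, ranged from 11.1 to 13.8 CPM, and reads of its parent could be counted for it. Adgrg3, an adhesion receptor of granulocytes, stood at 26.9, 20.4, 21.3 and 19.9 CPM, with an ATAC-seq peak of 40.7 CPM within 1 kb of its start, and Cfp stood at 6.93, 6.09, 3.94 and 4.23 CPM. Adgrg3 and Cfp were chosen after their values were seen.

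Other high members had no open start at all. Nup160, a nuclear pore protein, averaged 88.8 CPM in OCR, and was added after its value was seen. It overlaps no other protein-coding gene. Fam166a (32.5 to 43.4 CPM) overlaps Tubb4b, Bricd5 (13.4 to 17.5 CPM) overlaps Mlst8, and Mir6381, Mir130c and Mir6357 lie in Gbp2, Kdelc2 and Poli. Lsmem2 (5.23 to 7.44 CPM) overlaps no other protein-coding gene. Erdr1, counted under the name Gm47283, ranged from 28.9 to 68.9 CPM and lies at the repetitive end of the sex chromosomes. Of all expressed mark-free genes 248 (43.5%) had a body that overlaps another protein-coding gene, against 837 (32.2%) of those under 1 CPM, and the part of reads from overlapping genes was not tested. Among the expressed genes were also 37 vomeronasal and 17 olfactory receptors, 68 Rik clones and 41 predicted Gm genes.

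Lifelong CR changed few mark-free genes. Of 3166 mark-free genes, 1228 passed edgeR's filter on low counts for the comparison of OCR with OAL, and 23 were called at an adjusted p under 0.05 and a fold change over 1.2, of which 10 were higher and 13 lower in OCR. This is 1.87% of those tested, and the shares over all 27150 genes tested were 5.57% in either direction, 2.54% higher and 3.03% lower. Among mark-free genes averaging 1 CPM or more in these groups, 21 of 535 (3.93%) were called, against 8.43% of all such genes, and 104 mark-free genes had an unadjusted p under 0.05, where 16.2% of all genes tested (4387) had. The count was 15 without the second and 14 without the fourth OAL library. The median log2 fold change was 0.09 over the mark-free genes and 0.02 over all genes tested. The labels do not say whether libraries came from separate animals. The paper's legends count the libraries as mice and its reporting summary calls replicates biological, without stating whether cells were pooled. The p-values measure the spread between libraries.

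Gata1 had the largest fold change among the called mark-free genes that were higher in OCR with no overlap and a mean of at least 1 CPM. It stood at 1.69, 5.1, 3.21 and 2.8 CPM in OAL and at 10.8, 7.61, 6.26 and 9.92 CPM in OCR. Every OCR library was above every OAL library, and the log2 fold change was 1.46 ± 0.24 (edgeR, adjusted p = 0.000112). After refeeding it stood at 2.44 and 3.87 CPM, below every OCR library, with a log2 fold change of -1.53 ± 0.26 for OCRRF against OCR (edgeR, adjusted p = 0.00013). In young mice Gata1 was at 8.28 to 12.5 CPM in YAL and 10.5 to 20.3 CPM in YCR, and the groups overlapped (log2 fold change 0.46 ± 0.28, edgeR adjusted p = 0.686). Whether the effect of CR differs between old and young was not tested. The Gata1 start had H3K4me3 signals of 0.434 and 0.612 and a weak ATAC-seq peak of 0.614, 0.616, 0.57 and 0.954 CPM in OCR and 0.441 and 0.537 CPM in OCRRF. Another annotated Gata1 start 3744 bases downstream had a peak as weak, at 0.728 CPM. Gata1 is on chromosome X, and with its signal doubled H3K4me3 would be 0.869 and 1.22, which takes it out of the set.

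Kif14, a kinesin of cytokinesis, was at 2.27, 3.01, 3.21 and 2.83 CPM in OAL and at 6.36, 6.35, 6.3 and 5.49 CPM in OCR (log2 fold change 1.13 ± 0.19, edgeR adjusted p = 0.000126). The groups did not overlap, and an ATAC-seq peak lay at another Kif14 start 1505 bases upstream. Krt80, a type II keratin, was at 7.81, 9.82, 7.89 and 9.98 CPM in OAL and at 14.3, 17.5, 21.4 and 15.1 CPM in OCR (0.96 ± 0.14, adjusted p = 3.28e-05 in the same edgeR fit). It is 1 of the 6 keratin promoters without either mark and had an ATAC-seq peak of 2.86 to 3.19 CPM in OCR. This peak, at chr15:101368850-101369247, also lay within 1 kb of another annotated Krt80 start 1648 bases downstream. Dnah8, a dynein heavy chain of cilia and sperm tails, and 4930519L02Rik were also higher in OCR in all libraries, with log2 fold changes of 0.66 and 0.70, but both windows were poorly mappable. Sla, an adaptor that dampens antigen receptor signalling, was at 46.3 to 50.1 CPM in OAL and 53.2 to 75.7 CPM in OCR (0.44 ± 0.10, edgeR adjusted p = 0.00401), its tabled start lies within Tg, and another start 19236 bases downstream was open.

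Tdrd9, a helicase that silences transposons in the germ line, was the lower gene with the smallest adjusted p. It stood at 59.4, 57.4, 39.2 and 43.4 CPM in OAL and at 24.1, 25.1, 24.9 and 20.0 CPM in OCR, a log2 fold change of -1.07 ± 0.12 (edgeR, adjusted p = 3.44e-07). After refeeding it stood at 22.1 and 25.5 CPM, within or close to the OCR range. The level in the young groups was 1.01 to 9.7 CPM, and the body of the gene overlaps Rd3l. Dmrtc1a fell by 1.79 on the log2 scale, from 1.84 to 3.56 CPM in OAL to 0.3 to 1.52 CPM in OCR. Rab44, a large Rab GTPase of mast cells and other granulocytes, was at 4.88 to 7.33 CPM in OAL and 2.71 to 4.59 CPM in OCR (log2 fold change -0.85, edgeR adjusted p = 0.00888, and 0.0594 without the second OAL library). Clec4g, a lectin of liver sinusoids, and A530010L16Rik were lower with log2 fold changes of -0.83 and -0.73 (edgeR, adjusted p = 0.046 and 0.0365). Both calls were lost in 6 alternatives, where the adjusted p reached 0.208 for Clec4g without the third OAL library and 0.186 for A530010L16Rik without the second. Further down the scale of change, Bach2, a repressor that holds back lymphocyte effector differentiation, was at 32.3 to 41.7 CPM in OAL and 21.3 to 25.8 CPM in OCR (-0.54 ± 0.11, edgeR adjusted p = 0.00106), and Il21r was at 84.2 to 90.2 CPM and 67.4 to 76.0 CPM (-0.28 ± 0.08, adjusted p = 0.0346).

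Of the 3 erythroid markers among the members, Hbb-bs and Alas2 were called lower in OCR, although their groups overlapped. Hbb-bs, an adult beta globin with a near-identical neighbour, was at 74.7, 14.1, 75.9 and 118.2 CPM in OAL and at 10.6, 12.7, 28.5 and 8.87 CPM in OCR, and Alas2, the erythroid enzyme that starts heme synthesis, was at 7.38, 1.58, 5.45 and 7.76 CPM and at 1.42, 1.87, 3.33 and 1.53 CPM. The second OAL library was low for both genes and lay within the OCR range. The log2 fold changes were -2.22 ± 0.35 for Hbb-bs and -1.44 ± 0.32 for Alas2 (edgeR, adjusted p = 8.61e-05 and 0.00513). The alpha globin Hba-a1, whose promoter had H3K27me3 above the limit, stood at 33.0, 7.16, 33.5 and 53.1 CPM in OAL and at 5.22, 5.2, 14.4 and 3.27 CPM in OCR, the same library being low. The summed level of the erythroid markers, which is mostly Car2, ranged from 1484 to 1827 CPM in OAL and from 1343 to 1634 CPM in OCR. The summed level in OCRRF was 1059 to 1249 CPM. The part of red cell RNA in the globin difference was not tested.

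**Figure D5:**
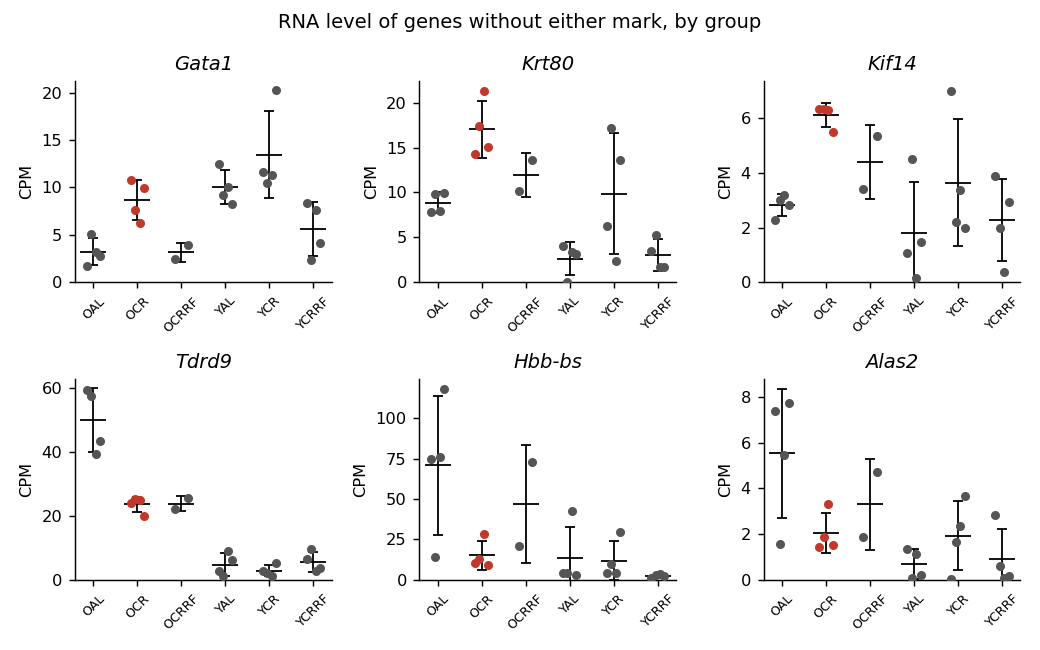
RNA level (y axis, CPM) of 6 mark-free genes in the OAL, OCR, OCRRF, YAL, YCR and YCRRF libraries (x axis), with 1 point a library, the mean as a dash and the SD as the error bar, OCR in red. Gata1, Krt80 and Kif14 lie higher in OCR than in OAL with no overlap and Tdrd9 lower with no overlap, whereas Hbb-bs and Alas2 overlap because the second OAL library is low.

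Refeeding called 10 mark-free genes of 1587 tested, 6 higher and 4 lower in OCRRF than in OCR. The shares over all genes tested were 3.41%, 0.694% and 2.71%. An unadjusted p under 0.05 was found for 162, where 16.9% of all genes tested (5501) had one. The median log2 fold change was 0.34 over the mark-free genes and 0.11 over all genes tested. This count rested on single libraries, since it was 56 (48 higher) without the third OCR library, 4 and 3 without either OCRRF library, and 76 (60 higher) in a fit with the replicate number as a block. Besides Gata1, 4930519L02Rik, Fam166a and Sla were lower in OCRRF. Sla was at 53.2 to 75.7 CPM in OCR and at 45.02 and 45.03 CPM in OCRRF (log2 fold change -0.56 ± 0.14, edgeR adjusted p = 0.0123). Fam166a was at 32.5 to 43.4 CPM and at 26.6 and 26.8 CPM (-0.57 ± 0.14, edgeR adjusted p = 0.0168). Hbb-bs was higher, at 20.9 and 72.6 CPM, with overlap (1.56 ± 0.28, edgeR adjusted p = 0.000347). The higher genes with no overlap and at least 1 CPM were 4930417O13Rik, Gm6093 and Frg2f1, at 1.51 to 9.23 CPM after refeeding. These calls, and those of Sla and Fam166a, were lost without either OCRRF library, and that of 4930519L02Rik without the first.

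Short-term CR in young mice called none of the 593 mark-free genes tested by edgeR, where 0.257% of all 18680 genes tested were called, 0.0642% as higher and 0.193% as lower in YCR. An unadjusted p under 0.05 was found for 31, where 9.29% of all genes tested (1735) had one, and DESeq2 called 7. In these libraries the levels of most members were at or near 0, and 2573 mark-free genes did not pass the filter and were not tested.

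Few ATAC-seq peaks were called with refeeding, at the members and elsewhere. Of 729 consensus peaks at member starts 693 were tested, and 1 was called between OCRRF and OCR at an adjusted p under 0.05, a fold change over 1.5 and a mean log2 CPM over 1.5, where 0.221% of all 123372 peaks tested were (0.13% higher and 0.0908% lower). It was a peak at chr12:106026712-106027698 in Vrk1, a nuclear kinase, of whose 4 tabled promoters 3 were members, and it lies downstream of the member start at position 106025807. It stood at 14.8, 12.2, 13.7 and 12.9 CPM in OCR and at 9.44 and 7.4 CPM in OCRRF, with a log2 fold change of -0.64 ± 0.15 (edgeR, adjusted p = 0.0302). The median log2 fold change was -0.03 over the member peaks and -0.01 over all peaks. Without the third OCR library or the first OCRRF library no member peak was called.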

How the data were processed

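Histone signals were deposited per promoter: the authors aligned reads to mm10 with BWA, removed duplicate and non-unique reads and blacklisted regions, and scaled coverage to 10 M reads, over 750 bases from the start for H3K4me3 and 2000 bases for H3K27me3, which is the window length deposited beside the signal. For H3K4me3 the paper states a window of 1 kb on either side of the start. The deposited 750 bases run downstream only, so H3K4me3 upstream of the start did not enter the rule. RNA-seq counts per gene were deposited by the authors, made with STAR on mm10, GENCODE and featureCounts, and ATAC-seq counts were deposited per consensus peak. Strand setting and handling of reads with several positions are not given in the sources used here. PU.1 peaks were called by the authors per library with MACS2, and the deposited peak score, fold enrichment and −log10 q were kept as given.

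Tables were joined by transcript. Levels are CPM with TMM scaling over the 22 libraries of native HSCs. Comparisons used the quasi-likelihood test of edgeR 4.0.16 (R 4.3.3) with filterByExpr across all genes or peaks and Benjamini-Hochberg adjustment, at an adjusted p under 0.05 and a fold change over 1.2 (RNA) or 1.5 with a mean log2 CPM over 1.5 (ATAC). DESeq2 1.42.0 was an alternative. The tests were checked on simulated data. ATAC-seq and PU.1 peaks counted when they overlapped 1000 bases on either side of a start. Tiles of 75 bases, at steps of 25 bases, were aligned as single reads with minimap2. A window was uniquely mappable by the share of its tiles aligned with a mapping quality of at least 20. Sequences and starts were read from RefSeq GRCm38.p6 and GENCODE. ATAC-seq depth was 15.7 to 19.6 M counts.

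Genes were named by rule: the 20 expressed mark-free genes with the highest level per kb of exon, leaving out Gm and Rik names, up to 5 called genes in each direction with no overlap between groups and at least 1 CPM, markers and class members, and called ATAC-seq peaks. A gene named outside this rule was picked with its values in view. The members and gene lists were chosen with earlier results of these data known. No pair of RNA libraries was identical. Libraries of transplanted cells with knockdown, and OAL libraries of ATAC-seq and histone marks, were not analysed here. Some genes that this rule names are not reported here.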

Additional observations from a re-analysis of the deposited data

Results flagged for a closer look

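Among the named genes, 9 of 107 groups of 4 libraries held a library farther from the others than Dixon's test allows at the 95% level, where chance alone flags about 1 in 20 groups. In OCR the third library was the highest for Erdr1 (counted as Gm47283), at 68.9 CPM against 28.9 to 32.1 CPM in the rest, for Elane at 3.49 CPM against 0.144 to 0.66 CPM, and for Prf1 at 1.1 CPM against 0.374 to 0.443 CPM. It was the lowest for Zmiz2, at 106.9 CPM against 117.8 to 119.1 CPM. The fourth OCR library was the highest for Dnah8, at 40.4 CPM against 31.3 to 32.3 CPM, and for Frg2f1, at 5.13 CPM against 3.88 to 4.05 CPM, and the lowest for Kif14, at 5.49 CPM against 6.3 to 6.36 CPM. The first OCR library was the lowest for Mir6381, at 3.86 CPM against 4.62 to 4.77 CPM. The first OAL library was the highest for Mir6340, at 2.9 CPM against 2.16 to 2.22 CPM.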

How the results depend on the processing

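The size of the set followed the limits, with 1192 promoters when both were halved and 9302 when both were doubled, and 5060 to 5087 with a single replicate of each mark. Expressed mark-free genes numbered 947 at 0.5 CPM, 185 at 5 CPM, 1109 where 1 member promoter sufficed, 121 with halved and 1296 with doubled limits, and 508 to 614 with an OCR library left out. The share of members with an ATAC-seq peak was 11.2% within 500 bases, 8.1% from 250 bases before to 50 after the start, 14.6% for peaks of at least 1 CPM, 8.47% and 18.8% with halved and doubled limits, and 20.1% in well mappable windows, where 105 vomeronasal promoters remained. Mappability, the X and Y scaling and CPM without TMM were chosen after seeing the data. Calls for OCR against OAL numbered 14 to 23 with a library left out and 29 with DESeq2, 20 of them lower. For OCRRF against OCR they numbered 16 with DESeq2, 17 with no filter, 3 to 56 with a library left out and 76 with the replicate block. For YCR against YAL they numbered 7 with DESeq2, 9 with no filter, 1 with at least 10 counts in every library and 0 with any library left out. Called ATAC-seq peaks numbered 4 with the replicate block, 0 within 500 bases and 0 to 2 with a library left out. PU.1 peaks in OCR numbered 35 to 39 by replicate. The cause of these changes was not tested. Same-numbered libraries correlated at -0.12 to 0.15 in their deviations, so the numbers do not pair the samples. Over the named genes 172 values kept their direction and their side of the threshold, 33 kept their direction but missed the threshold, and 0 turned. DESeq2 gave no adjusted p for 4930417O13Rik and Gm6093 between OCRRF and OCR.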
